A study of Homo sapiens with 17 samples.

Results

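The regions described here are the short H3K27me3 gains of replicative senescence: the H3K27me3 mesas on chromosomes 1 to 22 that span less than 50 kb from start to end in the authors' deposited list. They number 697 of the 1403 autosomal mesas and of the 1440 mesas in all, and of 6322 regions in the 5 deposited lists. The study calls broad gains of a histone mark in senescent cells mesas and broad losses canyons. The H3K27me3 lists carry no header that states a direction, so the names are taken at their word. The members were chosen by length, which is therefore a description and not a finding, while their neighbours, their distance to canyons and their place in the other lists were not part of the choice.

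The data come from 17 ChIP-seq libraries in 11 groups, all from IMR90, a line of primary human lung fibroblasts. For replicative senescence, proliferating cells at population doubling 24 were compared with senescent cells at doubling 87, which were held in dishes for 2 weeks after growth had ceased. These groups hold 4 proliferating and 2 senescent libraries for H3K27me3, 2 and 2 for histone H3, and 1 and 1 for H3K4me3; a single lamin B1 library came from proliferating cells. For oncogene-induced senescence, control cells and Ras-induced cells, both at doubling 15, had 1 H3 and 1 H3K4me3 library each. The Ras-induced cells were infected with a retrovirus carrying ER:Ras, which 100 nM of 4-hydroxytamoxifen switches on, and none of the H3K27me3 libraries used here came from them or from their controls. No expression was measured in these files, so the cell type could not be checked against markers.

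H3K27me3, trimethylation of lysine 27 on histone H3, is written by Polycomb repressive complex 2 through its catalytic subunit EZH2 and marks silent developmental genes and broad repressed domains. The same complex binds the mark it writes, which lets H3K27me3 spread along chromatin. Lamina-associated domains (LADs) are long, gene-poor, mostly silent stretches that touch the nuclear lamina, the filament network under the nuclear envelope; senescent fibroblasts lose lamin B1, one of its main proteins. H3K4me3, trimethylation of lysine 4, normally sits in narrow peaks at active promoters, so broad H3K4me3 domains are unusual.

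The lists hold start and end coordinates on hg18, with no signal, fold, p-value or count per sample. Depth is therefore unknown, no value could be compared between libraries, and no test over samples was possible. Every result below is a measurement on lists. Shares are given with a Wilson 95% interval, which covers counting error only and treats regions as independent, although neighbouring mesas are not; SDs describe the spread over 22 autosomes, not over cultures. No gene annotation or genome sequence of this build was used here, so regions are named by position alone.

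Short mesas made up 49.7% of autosomal mesas by number but 2.27% of their base pairs, 10.9 of 480 Mb. Their median length was 10.9 kb, with quartiles at 8.70 and 17.8 kb. Lengths were concentrated at the low end, with 290 members (41.6%) under 10 kb and 201 between 10 and 15 kb. From 15 to 50 kb, no 5 kb class held more than 53. The shortest member was on chromosome 16 at 33880801 to 33885099 (4.299 kb). The longest, on chromosome 12 at 50686301 to 50736099, measured 49.799 kb, and the next longest measured 49.699 and 49.499 kb. The shortest mesas past the limit measured 50.599, 51.099 and 51.099 kb, so lengths ran on across the limit without a wide gap. Counts below it were uneven, with 13 members from 40 to 45 kb and 31 from 45 to 50 kb.

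**Figure D1:**
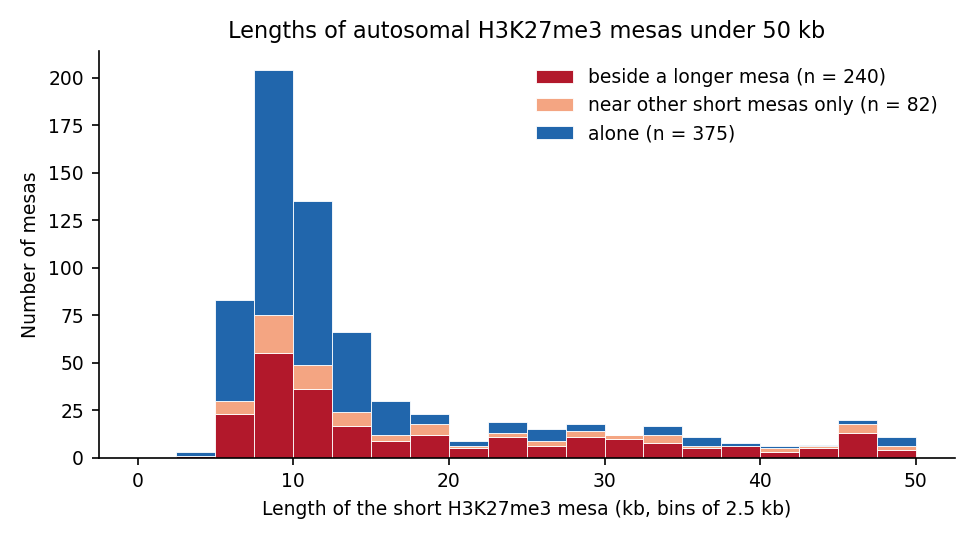
Number of short H3K27me3 mesas (vertical axis) by length in bins of 2.5 kb (horizontal axis), stacked by class: beside a longer mesa (240), near other short mesas only (82) and alone (375). Of the 697 mesas, 488 lie between 5 and 15 kb, and above 20 kb the class beside a longer mesa makes up the larger part, at 87 of 153.

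The first question was whether short mesas are pieces next to longer ones or stand by themselves. Both kinds were present. Of the 697, 240 (34.4%, 31.0 to 38.0%) lay beside a longer mesa, meaning that at most 50 kb separated them from a mesa of 50 kb or more. A further 82 (11.8%) had another short mesa within 50 kb but no longer one, and 375 (53.8%, 50.1 to 57.5%) had no mesa of any length within 50 kb and are called alone below.

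Most gaps to the nearest longer mesa were either short or very long, but no break lay at the 50 kb limit. The largest gap below the limit was 47.201 kb and the smallest above it 50.201 kb. In the class beside a longer mesa the median gap was 1.151 kb, and 159 of the 240 gaps were 5 kb or less. Among all 697 members, only 38 had their nearest longer mesa at a gap of over 50 and up to 200 kb. In the alone class the median gap to a longer mesa was 1571 kb, and to a mesa of any length 824 kb. The stretch of the autosomes outside longer mesas and canyons, called the free span below, came to 1326 Mb, and 3.82% of it lay within 50 kb of a longer mesa; that flanking ground held 34.4% of the short mesas.

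**Figure D2:**
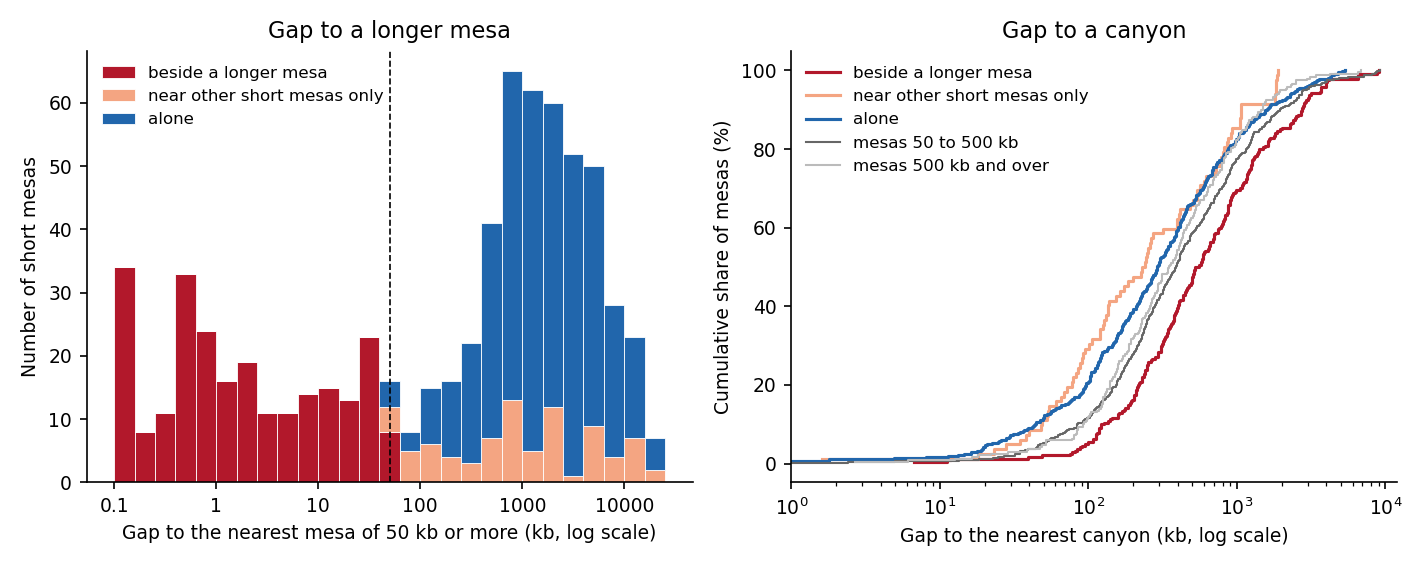
Left, number of short mesas by the gap to the nearest mesa of 50 kb or more (kb, log scale), coloured by class, with a dashed line at 50 kb. Right, cumulative share (%) of each class, and of longer mesas, by the gap to the nearest canyon (kb, log scale). On the left, 240 mesas are within 50 kb of a longer one by definition, 38 are at over 50 and up to 200 kb, and 419 lie beyond 200 kb. On the right, the curve of the class beside a longer mesa lies farthest from canyons. Its median is 539 kb, against 291 kb for the alone class.

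Some of the near gaps, 34 of 240, were a single step of the grid on which the regions were drawn. All 1440 mesa starts are multiples of 100 bp and all ends are 1 bp short of one, and the smallest gap between neighbouring mesas is 101 bp. A gap of exactly 101 bp separated 34 short mesas from a longer one. The first of these in genome order was on chromosome 1 at 11446701 to 11462899, next to a longer mesa of 51.699 kb. The next was on chromosome 1 at 30491601 to 30526699, with a longer mesa on each side, the nearer of 617 kb. The same small gaps occurred between longer mesas. Among neighbouring pairs with no canyon between them, the gap was 1 kb or less in 122 of 337 short-longer pairs, made up of 36 at 101 bp and 86 above it. It was 1 kb or less in 90 of 218 longer-longer pairs, 30 at 101 bp and 60 above it. Such gaps are thus not limited to short mesas.

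Joining the list across small gaps shows how much of the class rests on them. Across gaps of 101 bp, 54 short mesas (7.75%) became part of a domain of 50 kb or more. Across gaps of up to 1 kb, 158 did (22.7%). Across 10 kb, 254 did (36.4%), and across 50 kb, 278 did (39.9%). Even then, 419 short mesas stayed in domains under 50 kb, and the 1403 autosomal mesas had become 899 domains, of which 396 were under 50 kb.

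Mesas linked by gaps of up to 50 kb formed 152 runs with short and longer members together, which held 249 short and 281 longer mesas. The median run spanned 605 kb, of which 99.5% was mesa. In 95 of these runs there was 1 short mesa. The run with most short mesas lay on chromosome 17 at 28452501 to 30256699, where 7 short and 7 longer mesas filled 98.7% of 1804 kb. From the other side, 209 of 706 longer mesas (29.6%) had a short mesa within 50 kb. The nearest longer mesa of the 240 members had a median length of 283 kb, and in 86 cases it was 500 kb or more. Of the 240, 61 (25.4%) had longer mesas within 50 kb on both sides and 179 on 1 side, so most had a longer mesa on 1 side only.

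Runs of short mesas without a longer one numbered 32 and held 73 members, 26 of them being pairs. Their median span was 42.3 kb, and 11 of the 32 spanned 50 kb or more. The largest had 5 members on chromosome 12 at 34337401 to 34439599, where they filled 99.6% of 102 kb. The remaining 9 of the 82 mesas near short mesas only were linked to a longer mesa through another short one. By neighbours alone, with gaps of any size and no canyon or longer mesa between, the longest succession had 7 members on chromosome 12 at 34250001 to 40457699, but 1 of its gaps was 6010 kb.

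**Figure D3:**
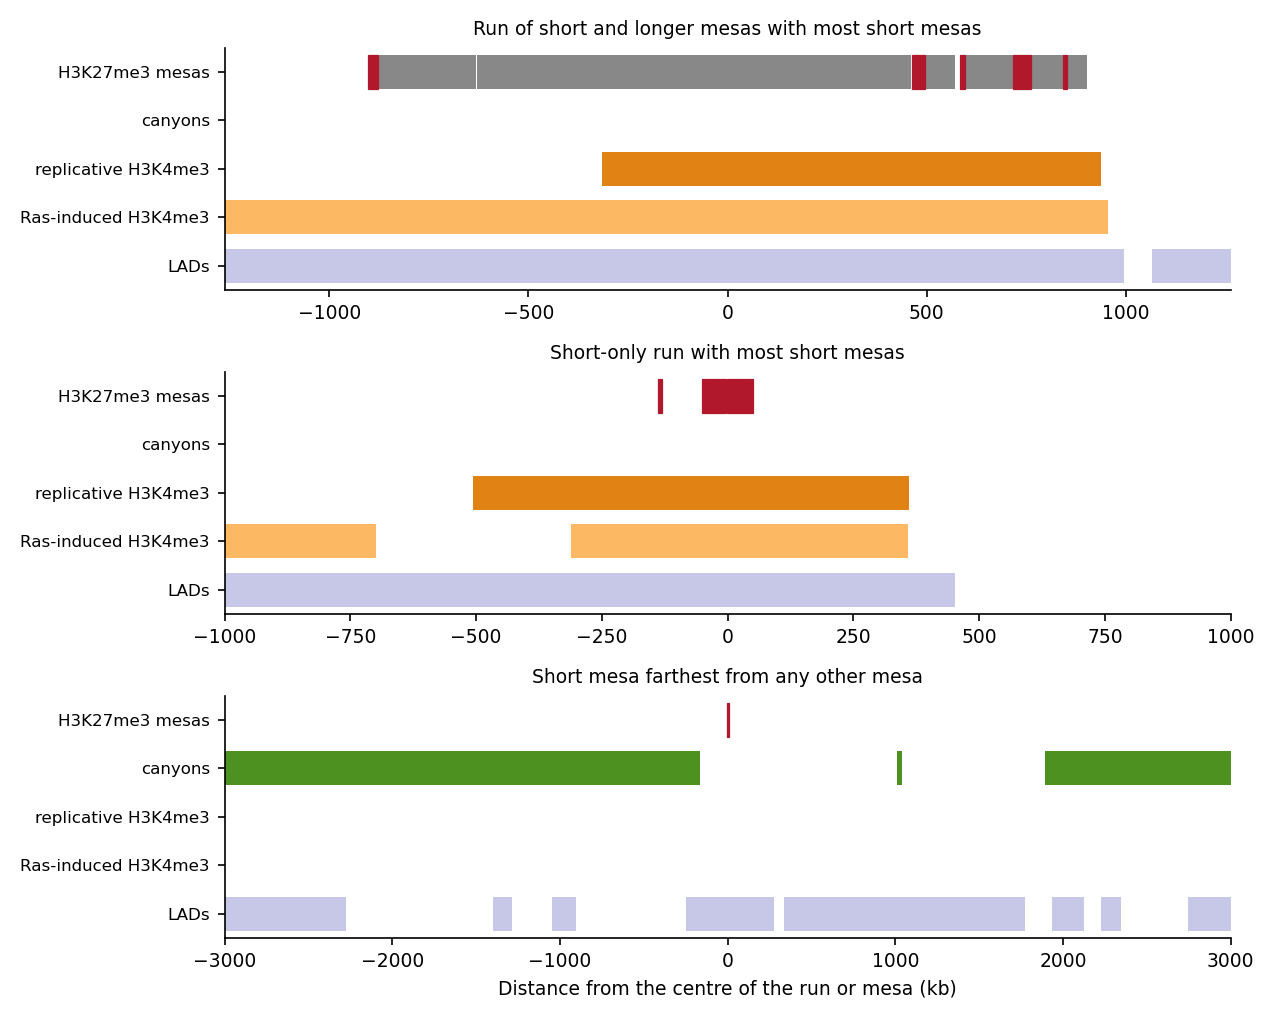
Maps of 3 places, each on a horizontal axis of distance in kb from the centre of the run or mesa, with rows for H3K27me3 mesas (short ones red, longer ones grey), canyons, both H3K4me3 lists and LADs. The top run on chromosome 17 is an almost continuous block with 7 short members, the middle run on chromosome 12 has 5 short members and no longer mesa, and the bottom mesa on chromosome 13 has no other mesa in a window of 3000 kb to either side.

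The 3 members farthest from any other mesa each had a canyon as the next H3K27me3 region on both sides. On chromosome 13 at 77041001 to 77051799, a mesa of 10.8 kb had no other mesa for 19231 kb, while a canyon lay 158 kb away. It was inside a LAD of 520 kb and under neither H3K4me3 list. On chromosome 2 at 70743101 to 70777799, a mesa of 34.7 kb was 8722 kb from the next and 178 kb from a canyon. It lay in a LAD and under both H3K4me3 lists. The third, on chromosome 5 at 86128301 to 86138599, was 8253 kb from the next mesa and 1850 kb from a canyon.

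Length and class went together. Members beside a longer mesa had a median length of 13.0 kb with an upper quartile of 28.4 kb, those near short mesas only a median of 13.0 kb, and those alone a median of 10.1 kb with an upper quartile of 12.9 kb. Among the 153 members of 20 to 50 kb, 56.9% (48.9 to 64.4%) lay beside a longer mesa and 26.1% were alone. Among the 290 under 10 kb, 27.2% (22.4 to 32.6%) lay beside one and 63.4% were alone.

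The second question was how near short mesas lie to canyons, the stretches that lose the mark. Few were next to one. The share differed little from that of the free span, which includes unsequenced stretches, so the small difference cannot be read. The median gap to the nearest canyon was 370 kb (binomial 95% bounds 321 to 407 kb), and 58 members (8.32%, 6.49 to 10.6%) were within 50 kb, against 6.27% of the free span. Mesas of 50 to 500 kb had a median gap of 391 kb with 5.33% within 50 kb, and mesas of 500 kb and over a median of 350 kb with 4.64%. The binomial bounds of these medians overlap those of the short mesas.

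The classes differed in their distance to canyons. Members beside a longer mesa had a median canyon gap of 539 kb (451 to 689 kb) and 5 of 240 (2.08%) lay within 50 kb of a canyon. Members alone had a median of 291 kb (249 to 345 kb) and 44 of 375 (11.7%, 8.86 to 15.4%) lay within 50 kb. The whole free span had 6.27% within 50 kb of a canyon. Those near short mesas only had a median of 235 kb (135 to 396 kb). A longer mesa beside a member itself takes up ground where no canyon lies, so the class and the canyon gap are not independent measures.

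The next H3K27me3 region to the left and right gives the same picture by order instead of distance. For 202 members (29.0%) it was a canyon on both sides, for 283 (40.6%) a canyon on 1 side and a mesa on the other, and for 204 (29.3%) a mesa on both sides. The 202 were all in the alone class and were the sole mesa of the stretch between 2 canyons. That stretch had a median of 813 kb, the nearer canyon being at a median of 189 kb and the farther at 577 kb. Only 24 of the 202 had both canyons within 200 kb, and 1 had both within 50 kb. Of these 202 sole mesas, 60.4% (53.5 to 66.9%) lay in LADs, against 65.1% of the free span farther than 50 kb from a longer mesa. Under replicative H3K4me3 mesas lay 20.8% (15.8 to 26.9%) against 14.3% of that span, and under Ras-induced ones 26.7% (21.1 to 33.2%) against 18.4%.

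A single member overlapped a canyon. The mesa on chromosome 8 at 25926801 to 25936399 (9.599 kb) lay wholly inside 1, with a longer mesa 55.7 kb away, so the lists assign gain and loss to the same base pairs there. The next nearest was on chromosome 10 at 76822501 to 76832299, with a gap of 0.001 kb. Mesa ends are 1 bp short of a multiple of 100 bp, so no grid step separates this mesa from the canyon. The third, on chromosome 3 at 75777901 to 75782999, was 0.501 kb from a canyon.

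The third question was where short mesas lie relative to the lamina of proliferating cells. By midpoint, 540 of 697 (77.5%, 74.2 to 80.4%) were inside LADs, with a mean of 76.4 ± 13.3% (SD) over 22 autosomes. LADs covered 61.2% of the autosomal span and 65.9% of the free span. Both spans include unsequenced stretches, whose effect on these shares was not measured. Mesas of 50 to 500 kb were inside LADs in 87.8% of cases (84.6 to 90.5%), and short mesas had the lower share on 18 of 22 autosomes. Mesas of 500 kb and over had 89.5%, and canyons under 50 kb had 66.4% (62.2 to 70.2%).

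The classes differed in this share. Members beside a longer mesa were inside LADs in 220 of 240 cases (91.7%, 87.5 to 94.5%), against 86.8% of the free span within 50 kb of a longer mesa. Members alone were inside LADs in 261 of 375 cases (69.6%, 64.8 to 74.0%), against 65.1% of the free span farther than 50 kb from a longer mesa, which lies within the interval. The share was higher beside a longer mesa on 15 of 21 autosomes, lower on 4 and equal on 2; chromosome 19 had no member of that class. Those near short mesas only had 72.0% (61.4 to 80.5%).

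**Figure D4:**
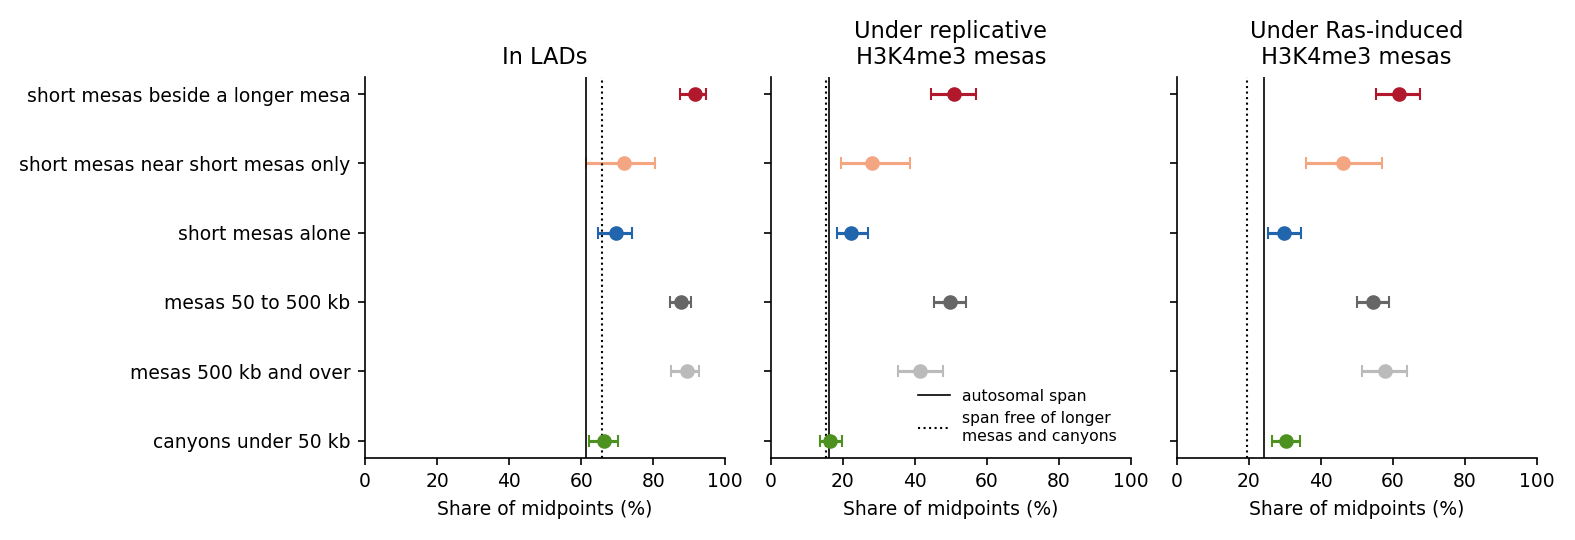
Share (%) of midpoints inside LADs (left), under replicative H3K4me3 mesas (middle) and under Ras-induced H3K4me3 mesas (right), for the 3 classes of short mesas, for longer mesas and for canyons under 50 kb. Points are shares, bars are Wilson 95% intervals, solid lines mark the share of the autosomal span and dotted lines that of the free span. In each panel the class beside a longer mesa (91.7%, 50.8% and 61.7%) lies above the alone class (69.6%, 22.4% and 29.9%); mesas of 50 to 500 kb are at 87.8%, 49.7% and 54.6%.

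Short mesas were small against the LADs they occupied and rarely crossed an edge. Of 697, 533 (76.5%) lay wholly inside, 14 (2.01%) crossed an edge and 150 (21.5%) lay wholly outside. The 540 inside were spread over 359 LADs with a median length, counted once per mesa, of 1395 kb. The median of all 2001 autosomal LADs, each counted once, was 430 kb. The 2 medians are weighted differently and show no preference for long LADs. LADs of 1 Mb and over held 63.0% of those 540 (58.8 to 66.9%), against 68.5% of LAD base pairs. The share was 72.7% (66.5 to 78.2%) beside a longer mesa, 81.4% (69.6 to 89.3%) near short mesas only and 50.6% (44.5 to 56.6%) alone.

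Within LADs the median distance from midpoint to the nearest edge was 248 kb. The deepest member, on chromosome 11 at 40245901 to 40254599, was 3100 kb from the edge of a LAD of 6900 kb, 0.601 kb from a longer mesa and under a replicative H3K4me3 mesa. Outside LADs the median distance was 149 kb. The member farthest outside was on chromosome 15 at 66277801 to 66286799, 1338 kb from a LAD, and the next, at 66389601 to 66399299 on the same chromosome, was 1226 kb away; both were alone. Members outside LADs were more often alone, at 72.6% (65.2 to 79.0%) against 48.3% inside (44.1 to 52.5%), and nearer to canyons, at a median of 191 kb against 437 kb.

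The fourth question was whether short H3K27me3 gains fall where broad H3K4me3 appears. By midpoint, 229 of 697 (32.9%, 29.5 to 36.4%) lay under replicative H3K4me3 mesas, which covered 16.2% of the autosomal span and 15.3% of the free span. Under Ras-induced H3K4me3 mesas lay 298 (42.8%, 39.1 to 46.5%), against 24.2% and 19.4%. The Ras-induced list comes from other cells and another trigger than the H3K27me3 list. In all, 164 members (23.5%) were under both lists and 334 (47.9%) under neither. The part of the span under both or neither was not measured.

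As with LADs, the classes split. Members beside a longer mesa were under replicative H3K4me3 mesas in 122 of 240 cases (50.8%, 44.5 to 57.1%), against 49.7% for mesas of 50 to 500 kb. Mesas of 500 kb and over had 41.4% (35.3 to 47.7%) under replicative and 57.8% (51.4 to 63.9%) under Ras-induced mesas. Members alone were under replicative mesas in 84 of 375 cases (22.4%, 18.5 to 26.9%), lower than members beside a longer mesa on 16 of 21 autosomes. For Ras-induced mesas, which held 54.6% (50.1 to 59.0%) of mesas of 50 to 500 kb, the counts were 148 of 240 (61.7%, 55.4 to 67.6%) and 112 of 375 (29.9%, 25.5 to 34.7%), and the alone class was lower on 20 of 21 autosomes. Against mesas of 50 to 500 kb, the alone class was lower under the Ras-induced list on 22 of 22 autosomes, at 29.9% against 54.6%. Canyons under 50 kb had 16.4% (13.5 to 19.8%) under replicative and 30.3% (26.5 to 34.3%) under Ras-induced mesas. Under the replicative list the alone class was higher, at 22.4%, on 13 of 22 autosomes and lower on 9. Under the Ras-induced list the alone class, at 29.9%, was close to these canyons. No difference was tested.

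The ground around longer mesas had a high share of its own. Of the free span within 50 kb of a longer mesa, 40.3% was under replicative and 46.9% under Ras-induced H3K4me3 mesas, against 14.3% and 18.4% of the free span farther away. Members beside a longer mesa, at 50.8% and 61.7%, lay above the flanking ground, and members alone, at 22.4% and 29.9%, above the farther ground. Members that share an H3K4me3 mesa are not independent, so the Wilson intervals are too narrow for this comparison. The flanking ground also weighs all distances up to 50 kb alike, while members beside a longer mesa lay at a median gap of 1.151 kb. Whether the excess goes beyond this was not tested. H3K4me3 mesas are at least 501.0 kb long. All 122 members under a replicative and all 148 under a Ras-induced mesa shared that mesa with the facing edge of their longer neighbour, which such lengths make all but certain at gaps of up to 50 kb. For LADs, 218 of 220 shared the LAD with that edge.

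Inside LADs, where most members lay, the split between classes was kept. There, 53.2% (46.6 to 59.7%) of members beside a longer mesa and 26.1% (21.1 to 31.7%) of those alone were under replicative H3K4me3 mesas. The free LAD ground within 50 kb of a longer mesa had 44.0% and that farther away 19.4%. For Ras-induced mesas the shares were 62.7% (56.2 to 68.8%) and 26.4% (21.5 to 32.1%), against 48.4% and 21.8% of the ground, and the last of these values lies within the interval of the alone class.

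Outside LADs a smaller part of the ground was under either H3K4me3 list. Of the 157 members there, 68 (43.3%, 35.8 to 51.1%) were under Ras-induced and 26 (16.6%, 11.6 to 23.2%) under replicative H3K4me3 mesas. The free span outside LADs, any unsequenced stretches included, had 12.2% and 4.99%. The 114 alone and outside LADs had 37.7% (29.4 to 46.9%) under Ras-induced and 14.0% (8.8 to 21.6%) under replicative mesas, against 11.9% and 4.83% of the free span outside LADs and farther than 50 kb from a longer mesa. Inside LADs all members together had 42.6% under Ras-induced and 37.6% under replicative mesas, against 23.2% and 20.6% of the free LAD span. Taken over all classes, members lay above their ground under both lists, inside and outside LADs.

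All 3 lists together, LAD and both H3K4me3 lists, held 144 members (20.7%): 89 of the 240 beside a longer mesa (37.1%) and 42 of the 375 alone (11.2%). Mesas of 50 to 500 kb had 34.3%. The members deepest in such shared ground were on chromosome 12 at 118037301 to 118049299, 514 kb from the nearest edge of any of the 3, on chromosome 10 at 129685501 to 129722699 (510 kb), and on chromosome 12 at 118051001 to 118083999 (489.5 kb). All 3 lay beside a longer mesa. At the other end, 83 members (11.9%) were outside LADs and under neither list, 67 of them alone. The part of the span in these combinations was not measured, so whether the counts differ from the ground was not tested.

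By chromosome, density was 0.262 ± 0.096 short mesas per Mb (SD, 22 autosomes). It was highest on chromosome 20 at 0.497 per Mb (31 members) and lowest on chromosome 21 at 0.107 per Mb (4 members). Short mesas were between 28.6 and 60.0% of all mesas of an autosome. The share beside a longer mesa ranged from 0 of 16 on chromosome 19 to 11 of 17 (64.7%) on chromosome 16, with 26 of 45 (57.8%) on chromosome 7. Chromosome 19 was the only autosome on which every short mesa was alone. Chromosomes 3 and 12 held 31 of the 82 members near short mesas only, 15 and 16 of them. All 16 members on chromosome 13 and all 12 on chromosome 18 were in LADs, while chromosomes 18 and 21 had none under a replicative H3K4me3 mesa. The part of each single chromosome that these lists cover was not measured, so these counts have no background of their own. Within 5 Mb of an end of the mapped span lay 104 members (14.9%, 12.5 to 17.8%), against 7.89% of the span itself and 19.0% of mesas of 50 to 500 kb.

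**Figure D5:**
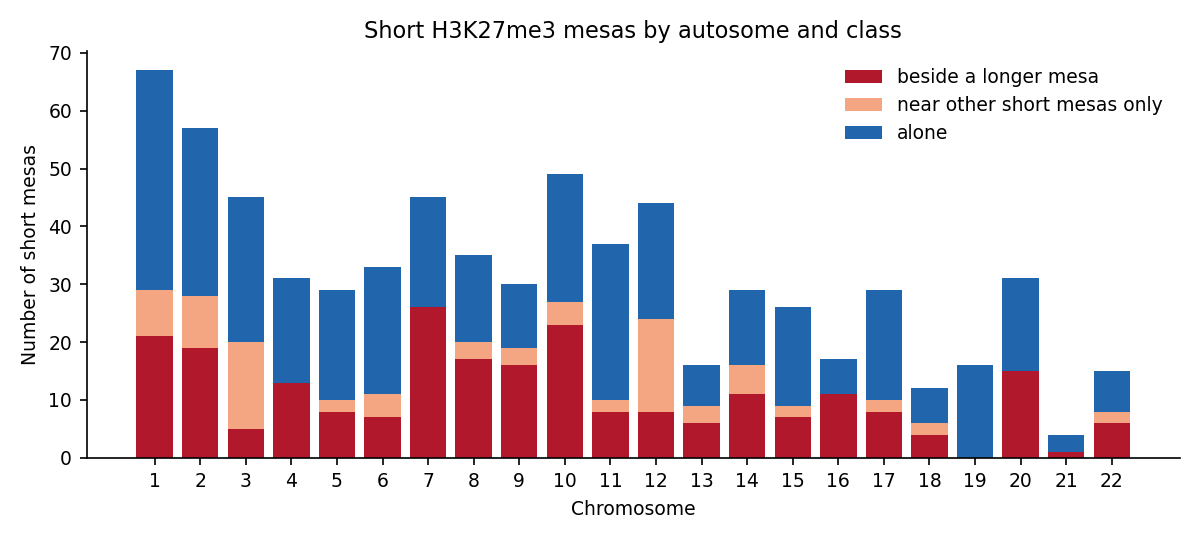
Number of short H3K27me3 mesas on each autosome (bars), stacked by class. Chromosome 1 has most (67) and chromosome 21 fewest (4); on chromosome 19 all 16 are alone, and on chromosome 16 most (11 of 17) lie beside a longer mesa.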

How the data were processed

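Per the submitters' processing notes, the aligner was Bowtie 0.12.5 and the genome hg18. How regions were called, with which cut-offs, whether H3 served as control and whether replicates were pooled is not given in the sources used here. The deposited lists give chromosome, start and end; the score column deposited with the LADs is 0 in all 2054 rows and was not used. Lengths are end minus start, gaps are the start of a region minus the end of the one before it, and starts are printed counting from 1. Membership of a list was decided at the midpoint. The free span is the autosomal span, taken between the outermost coordinates that any list gives on each chromosome and including unsequenced stretches, minus mesas of 50 kb or more and canyons, on a 100 bp grid. How far the unsequenced stretches shift the shares of the span was not measured, so small differences from those shares cannot be read. Named regions are the 3 extremes of each measure (length, gaps, LAD depth, shared depth) and the longest runs. The members, lists and measures were chosen with earlier results of these data known. Python 3.11.15, numpy 2.4.6 and scipy 1.17.1 were used; the functions were tested on simulated data. No adjusted p-value, test over regions or fit was made.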

Additional observations from a re-analysis of the deposited data

How the results depend on the processing

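Depth is unknown and no library could be left out, so stability between cultures cannot be judged. No paired analysis was possible because the lists hold no value per sample. Of 46 alternatives, 29 stayed inside the 95% interval of the main value. With gaps of 10, 25 and 200 kb counted as beside, 26.0, 30.0 and 39.9% of short mesas lay beside a longer mesa. It was 29.2% when short meant under 100 kb, and 29.9% after joining mesas across 101 bp, an alternative chosen after seeing the data. The share with no other mesa was 58.5% at 10 kb, 46.9% at 200 kb, 61.6% when short meant under 20 kb and 59.2% after joining. The share near a canyon was 1.15, 4.02, 16.5 and 31.9% at 10, 25, 100 and 200 kb, and 4.02% for canyons of at least 50 kb, to which the median gap was 675 kb. Among mesas under 20 kb, 29.0% lay under replicative and 37.5% under Ras-induced H3K4me3 mesas. The share in LADs stayed inside its interval under all 8 alternatives run. Asking for at least 50% of the region, or joining LADs across gaps of up to 50 kb, left it at 77.5%. The 50% rule also left both H3K4me3 shares unchanged, so these settings say little about stability. Leaving out each autosome in turn gave 32.8 to 36.0% beside, 52.7 to 54.6% with no other mesa, 7.46 to 8.75% near a canyon, a median canyon gap of 351 to 384 kb, 76.9 to 78.4% in LADs, and 31.4 to 33.7% and 41.7 to 44.5% under the replicative and Ras-induced lists.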

Other observations

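Chromosomes X and Y were not part of the set. On X, 11 of 35 mesas (31.4%) were under 50 kb. Of these, 5 lay beside a longer mesa (45.5%, Wilson 95% interval 21.3 to 72.0%) and 6 were alone; all 11 were in LADs, 9 under replicative and 6 under Ras-induced H3K4me3 mesas. Their median gap to a canyon was 2192 kb. The part of X that the LAD and H3K4me3 lists cover was not measured, so these counts have no background. The list also held 2 mesas on Y, both short. The sex of the cells was not checked here, so whether these 2 calls are real regions was not tested.

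Short canyons, the losses of the same size, had a like arrangement within their own list. Of 535 autosomal canyons under 50 kb, 179 (33.5%, 29.6 to 37.6%) lay within 50 kb of a longer canyon and 283 (52.9%) had no other canyon within 50 kb. For short mesas these shares were 34.4 and 53.8%. Their median length was 15.2 kb, against 10.9 kb for short mesas, and 7.10% were under 10 kb, against 41.6%.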
